A study of Homo sapiens with 12 samples.

Results

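Leukocyte-type integrins are the integrin subunits whose heterodimers are best known from blood cells. The 9 genes ITGAX, ITGAM, ITGAL, ITGAD, ITGAE, ITGA4, ITGA2B, ITGB2 and ITGB7 were chosen by name from the 58721 genes of the count table. They comprise 7 alpha and 2 beta subunits, and the remaining 17 integrin genes were used for comparison. The genes were followed in EW8 and TC71, 2 established cell lines of Ewing sarcoma, a tumor of bone and soft tissue driven by the EWS-FLI1 fusion in most cases. Both lines carried lentiviral Tet-On vectors for c-Jun and c-Fos, the best-known partners within the AP-1 transcription factor, whose expression doxycycline induces, and both were kept as drug-selected populations after sequential infection. Cells received doxycycline at 2000 ng/ml or DMSO as vehicle for 72 h, in 4 groups (EW8 vehicle, EW8 doxycycline, TC71 vehicle and TC71 doxycycline) of 3 libraries each. The vehicle cells carried the same vectors. A control that lacks the vectors but received doxycycline was not used here, and effects of the drug and of the transgenes cannot be told apart. The comparisons address which integrin genes differ when c-Jun and c-Fos are induced, and whether both lines respond alike.

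Integrins are transmembrane receptors made of 1 alpha and 1 beta subunit, and an alpha subunit generally reaches the cell surface only when paired. ITGB2 (CD18) is the shared partner of ITGAL (CD11a), ITGAM (CD11b), ITGAX (CD11c) and ITGAD (CD11d), which let leukocytes bind ICAM proteins, complement fragments and fibrinogen. ITGA4 pairs with ITGB1 or ITGB7 to bind VCAM1, fibronectin and MADCAM1, ITGAE (CD103) pairs with ITGB7 to bind E-cadherin, and ITGA2B pairs with ITGB3 to form the fibrinogen receptor of platelets.

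Total counts ran from 42860665 to 60853649 per library. JUN rose from a mean of 21.6 to 474 CPM (counts scaled to a common library size) in EW8 and from 20.7 to 756 CPM in TC71, and FOS rose from 36.8 to 1080 CPM and from 11.7 to 1580 CPM, so the induced genes matched the labels in every library. The lines expressed Ewing sarcoma markers throughout, with none of 9 markers at the floor in any group. Here the floor means 6 counts or fewer in each of the 3 libraries of a group, which is 3 read pairs because each mate was counted. Replicates differed by a chi-square per gene of 5.4 to 11 in 10 of 12 within-group pairs, but by 61.7 and 63.9 in the pairs that held TC71 vehicle replicate 1. For the tested leukocyte-type integrins, values without that library are given beside the TC71 responses and where leaving it out changes a call. The TC71 responses of all other genes are given with that library included. In bulk RNA, a change in RNA per cell and a change in the share of cells that express a gene cannot be told apart.

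The subunits fell into 3 classes by level. ITGB2, ITGA4, ITGAE and, at a lower level, ITGA2B were above the floor in all 4 groups, ITGAX and ITGAM were above it in some groups, and ITGAL, ITGAD and ITGB7 stayed at or near the floor throughout. The first 6 passed the filter on low counts and were tested, and the last 3 were not. A gene was called at a Benjamini-Hochberg adjusted p < 0.05 in edgeR's quasi-likelihood test over 21013 genes together with a log2 fold change beyond 1 in size. With doxycycline, 3 of the 9 genes were called higher and 0 lower in EW8, where 11.4% of all tested genes were called higher and 3.38% lower. In TC71, 2 were called higher and 1 lower, beside 12.3% and 3.67% of all tested genes. By the p threshold alone, 3 of the 9 genes passed in EW8 and 5 in TC71, where 43.9% and 45.6% of all tested genes did. A gene had to have counts in some group to be tested, so these shares are a background and not a comparison with all 9 genes. The median log2 fold change of the 6 tested genes was 0.90 in EW8 and 0.57 in TC71, against -0.03 and 0.00 over all tested genes. ITGAX and ITGAM, with few or no vehicle counts, passed the filter through their doxycycline counts, so these medians are no comparison either. The others, ITGA2B, ITGB2, ITGAE and ITGA4, were at -0.56, -0.07, -0.03 and 1.83 in EW8. In TC71 they were at -1.27, -0.51, 0.20 and 0.94.

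**Figure D1:**
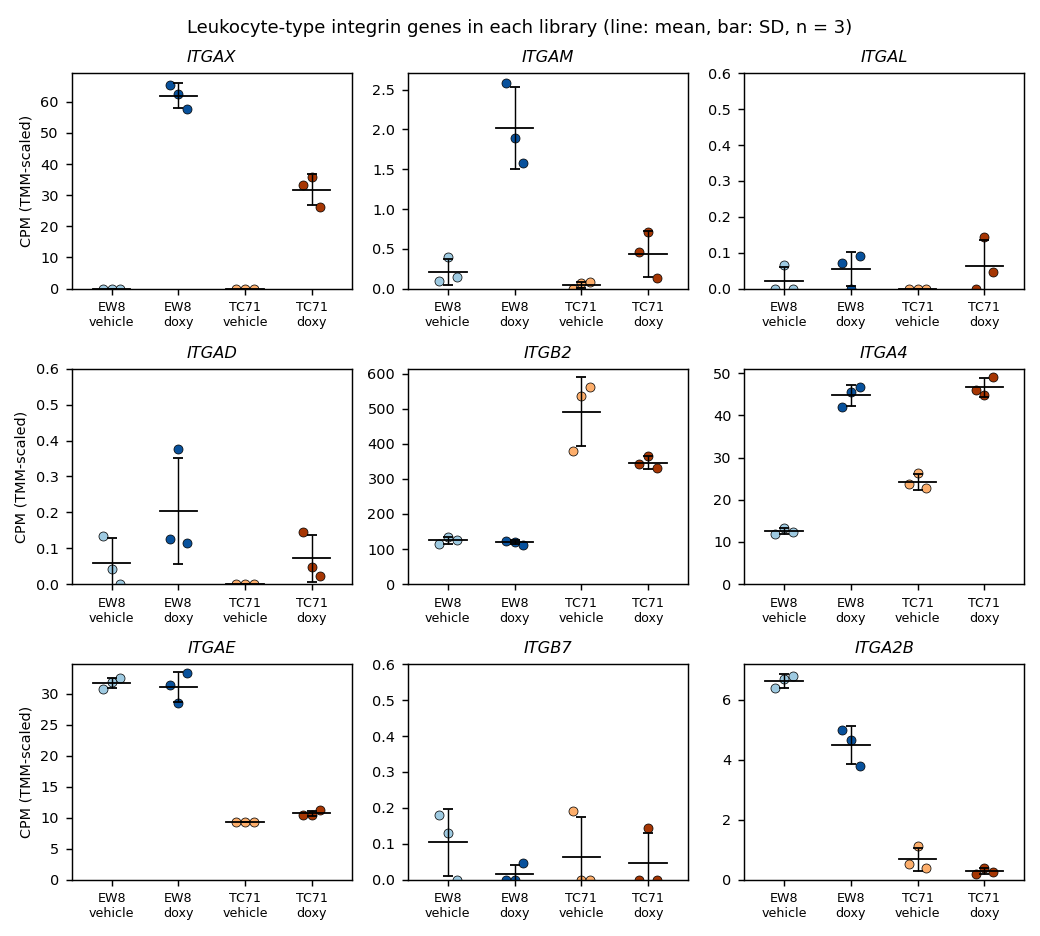
Each point is 1 library, with TMM-scaled CPM on a linear y axis that starts at 0 and the 4 groups on the x axis. Horizontal lines are means and error bars SD (n = 3). ITGAX reached 26.2 to 65.5 CPM in the 6 doxycycline libraries and at most 0.0359 CPM in the 6 vehicle libraries, whereas ITGAL, ITGAD and ITGB7 stayed below 0.4 CPM in all 12.

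Promoter sequences from RefSeq (GRCh38.p14, 250 bases before to 50 after the RefSeq start, gene strand) were matched for 5 of the 9 genes, ITGAM, ITGAE, ITGA4, ITGA2B and ITGB7. The RefSeq start can differ from the start of the gene as counted. The ITGA2B window lies wholly upstream of the counted gene, which starts at 44389505. Most of the ITGA4 window lies after the counted start at 181457202. The windows of the 3 called genes among them are shown because their RNA moved in different directions. Capitals mark the core motif of RUNX factors (TGTGGT), and a window with no capitals held none of the motifs searched.

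ITGAM, chr16:31259725-31260024, plus strand: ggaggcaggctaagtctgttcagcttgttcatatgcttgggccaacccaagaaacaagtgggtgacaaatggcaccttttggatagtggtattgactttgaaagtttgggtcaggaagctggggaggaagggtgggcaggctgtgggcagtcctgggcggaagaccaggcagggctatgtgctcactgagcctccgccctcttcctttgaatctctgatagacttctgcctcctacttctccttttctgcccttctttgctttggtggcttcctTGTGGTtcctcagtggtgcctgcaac
ITGA4, chr2:181457136-181457435, plus strand: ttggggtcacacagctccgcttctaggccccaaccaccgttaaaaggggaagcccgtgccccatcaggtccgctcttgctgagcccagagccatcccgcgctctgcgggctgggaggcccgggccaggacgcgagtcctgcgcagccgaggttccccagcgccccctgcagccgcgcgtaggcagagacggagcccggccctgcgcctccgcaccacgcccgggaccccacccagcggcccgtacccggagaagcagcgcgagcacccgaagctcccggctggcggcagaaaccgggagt
ITGA2B, chr17:44389600-44389899, minus strand: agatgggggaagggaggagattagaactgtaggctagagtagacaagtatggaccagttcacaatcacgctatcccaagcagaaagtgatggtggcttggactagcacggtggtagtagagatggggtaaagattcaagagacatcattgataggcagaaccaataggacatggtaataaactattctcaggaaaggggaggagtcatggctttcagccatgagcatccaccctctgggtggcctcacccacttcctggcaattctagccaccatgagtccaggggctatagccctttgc

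On both strands, none of the 5 windows held the AP-1 site TGANTCA, the CRE TGACGTCA, the ETS repeat GGAAGGAA or the GATA core AGATAA, which were found in 7.71%, 1.85%, 3.67% and 10.3% of 35116 RefSeq windows of this length. The RUNX core occurred only in ITGAM, 25 bases after the RefSeq start, and in 13.1% of all windows. A match describes the letters of the window only.

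ITGAX went from essentially no reads to a level that exceeded every other leukocyte-type alpha subunit in EW8. ITGAX (ENSG00000140678.16, chr16:31355134-31382997, hg38, plus strand) encodes CD11c, the alpha subunit of complement receptor 4 on dendritic cells and macrophages. It had 0, 0 and 2 counts in the EW8 vehicle libraries and 0 in each of the 3 TC71 vehicle libraries. After doxycycline it had 3657, 3167 and 2523 counts in EW8, or 65.5, 62.6 and 57.6 CPM. In TC71 it had 1368, 1502 and 1153 counts, or 33.2, 35.9 and 26.2 CPM. The doxycycline and vehicle libraries did not overlap in either line.

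Read pairs were taken as the counts of each library halved and rounded up. Summed over replicates, the EW8 groups had 4675 such pairs with doxycycline and 1 with vehicle. The depth-corrected ratio was 4540, with an exact 95% interval of 814 to 179000 for counting error only. In TC71 the rise was at least 273-fold, measured against 6 counts per library. ITGAX was called higher in both lines by edgeR's quasi-likelihood test, with an adjusted p of 6.22e-15 in EW8 cells and 1.59e-14 in TC71 cells, or 7.76e-20 in the latter without TC71 vehicle replicate 1. Since both vehicle groups were at the floor, the folds of the lines were not compared. The levels after doxycycline were compared, and TC71 was at 31.8 ± 4.98 CPM against 61.9 ± 3.97 CPM in EW8 (SD, n = 3). That difference of -0.96 log2 (SE 0.12, adjusted p = 3.41e-06) was just within the fold limit, and it passed the limit in 6 of 19 alternative settings, with values from -1.08 to -0.84.

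ITGAM, the neighbor of ITGAX, changed in the same direction at a far lower level. ITGAM (ENSG00000169896.17, chr16:31259967-31332892, plus strand) encodes CD11b, the alpha subunit of Mac-1 on neutrophils, monocytes and macrophages. Its counts were 4, 18 and 8 in EW8 vehicle and 144, 96 and 69 in EW8 doxycycline. They were 0, 4 and 4 in TC71 vehicle and 19, 30 and 6 in TC71 doxycycline. Treated and vehicle libraries did not overlap in either line, although the lowest treated TC71 library had only 6 counts.

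ITGAM was called higher in both lines. The log2 fold change was 3.27 (SE 0.65) with an adjusted p of 0.000418 in EW8, and 3.12 (SE 0.79) with an adjusted p of 0.0032 in TC71. The read-pair ratios were 10.0 (95% counting interval 5.9 to 18.4) in EW8 and 9.14 (3.2 to 35.9) in TC71, the latter resting on 4 read pairs with vehicle. The difference between the responses was -0.15 log2 with an SE of 1.63 (adjusted p = 0.991), and no difference was detectable at this depth. This SE was derived from the test statistic and is only approximate near the floor. Without TC71 vehicle replicate 1 the TC71 value was 2.51 (adjusted p = 0.00754). When the fit held only the 6 TC71 libraries, ITGAM was not among the genes tested.

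The other partners of ITGB2 in the same chromosome band did not reach such levels. ITGAD (ENSG00000156886.11, chr16:31393312-31426505, plus strand) encodes CD11d, found on tissue macrophages, and begins 38.2 kb beyond the ITGAX start. It had 6, 2 and 0 counts in EW8 vehicle and 7, 19 and 5 in EW8 doxycycline, a read-pair ratio of 4.13 with a counting interval of 1.35 to 16.9 and with overlapping libraries. In TC71 it had 0 counts in each vehicle library and 6, 2 and 1 with doxycycline, so both groups were at the floor. ITGAL (ENSG00000005844.17, chr16:30472658-30523185, plus strand), which encodes the CD11a chain of LFA-1 on nearly all leukocytes, had at most 6 counts in every library, and all 4 groups were at the floor.

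Within 50 kb of ITGAX, 3 of 7 annotated neighbors were tested, and none other than ITGAM was called in either line. Farther out in the plotted region, PRSS8 was called higher in EW8 (2.67 log2) and TC71 (4.22 log2). TGFB1I1 was also called higher in EW8 (1.49 log2) and TC71 (6.64 log2), reaching only 0.253 CPM in TC71 doxycycline. ENSG00000261245, which lies on the opposite strand inside ITGAX, had 0 counts in every library. ENSG00000260757 had at most 19 counts and was at 0.75 log2 in EW8 (adjusted p = 0.648) and -1.07 log2 in TC71 (adjusted p = 0.502). COX6A2, ZNF843 and ENSG00000277543 had at most 2, 16 and 0 counts.

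**Figure D2:**
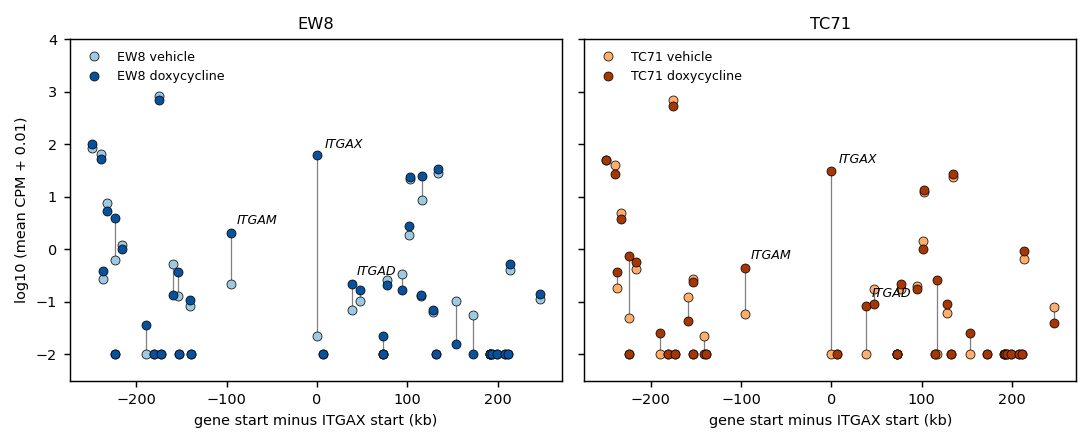
Points are annotated genes by the distance of their start from the ITGAX start in kb (x axis) and their mean level as log10 of CPM plus 0.01 (y axis), in EW8 (left) and TC71 (right), and a grey line joins vehicle to doxycycline for each gene. ITGAX has the longest line in both lines, ITGAM goes from 0.209 to 2.02 CPM in EW8, and ITGAD stays under 0.3 CPM.

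ITGB2 was expressed before induction and did not rise with its alpha partners. ITGB2 (ENSG00000160255.17, chr21:44885953-44931989, minus strand) encodes CD18, whose loss causes leukocyte adhesion deficiency. In EW8 it stood at 115.6, 133.6 and 125.0 CPM with vehicle and 123.9, 120.6 and 112.7 CPM with doxycycline. The 2 ranges overlapped, and the log2 fold change was -0.07 (SE 0.10, adjusted p = 0.652).

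In TC71 ITGB2 stood at 379.6, 535.3 and 560.5 CPM with vehicle and 342.8, 366.5 and 330.0 CPM with doxycycline. Every treated library was below every vehicle library, and the change was -0.51 log2 (SE 0.10, adjusted p = 0.000482), which passed the p threshold but not the fold limit. The vehicle library closest to the treated ones was TC71 vehicle replicate 1, and without it the change was -0.74 (adjusted p = 2.85e-11). The response in TC71 minus that in EW8 was -0.44 (SE 0.15, adjusted p = 0.0421, edgeR's quasi-likelihood test of the interaction), and the adjusted p exceeded 0.05 when any of 6 of the 12 libraries was left out in turn, reaching 0.113 without EW8 vehicle replicate 1. Without TC71 vehicle replicate 1 it was -0.72 (adjusted p = 8.23e-08). Across lines, the ITGB2 level of TC71 exceeded that of EW8 with no overlap, by 1.98 log2 with vehicle (SE 0.11, adjusted p = 1.4e-11) and 1.54 log2 after induction (SE 0.11, adjusted p = 3.9e-10). The antisense gene ITGB2-AS1 shares 4.46% of the exon length of ITGB2. Its counts were 1374 to 1649 in EW8 vehicle, 1887 to 2444 in EW8 doxycycline, 851 to 1564 in TC71 vehicle and 431 to 622 in TC71 doxycycline. As counting ignored strand, reads of this gene and of ITGB2 outside the shared bases could not be separated by strand.

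Set against exon length, the summed level of the 4 ITGB2-binding alpha subunits moved from a trace to the same order as ITGB2 in EW8. Expressed as CPM per kilobase, the sum was 0.297% ± 0.145 of the ITGB2 level in EW8 vehicle and 52.2% ± 1.21 in EW8 doxycycline (SD, n = 3). In TC71 it was 0.0103% ± 0.00899 with vehicle and 8.98% ± 1.1 with doxycycline. ITGAX supplied at least 94.9% of the alpha sum in each EW8 doxycycline library and at least 97% in each TC71 doxycycline library. These are RNA levels, and no protein or surface pairing was measured.

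**Figure D3:**
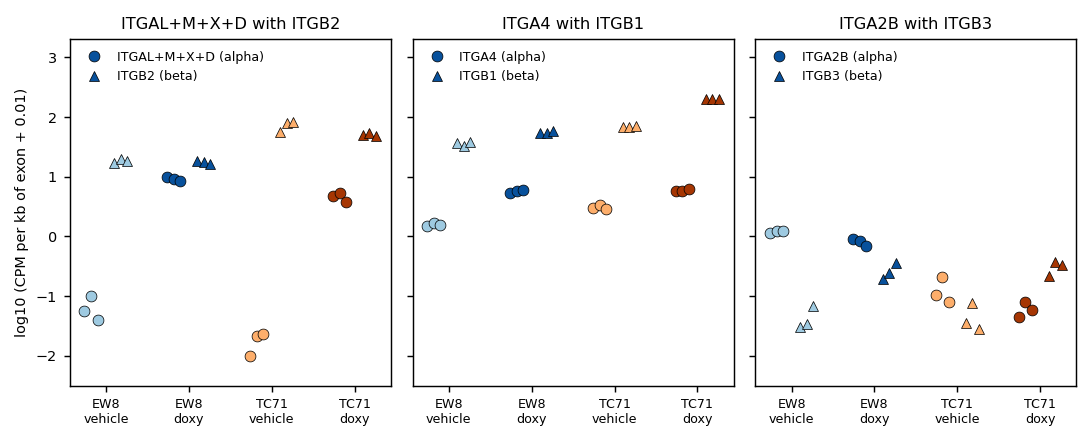
Each point is 1 library, with the level as log10 of CPM per kb of exon plus 0.01 on the y axis. Circles are alpha subunits and triangles their beta partners, in 4 groups per panel. The summed ITGB2 partners climb to 52.2% of ITGB2 in EW8 doxycycline and 8.98% in TC71 doxycycline, ITGA4 stays below ITGB1 in every library, and in TC71 ITGA2B moves from above to below ITGB3.

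ITGA4 rose in both lines, to levels that overlapped after induction. ITGA4 (ENSG00000115232.13, chr2:181457202-181536187, plus strand) encodes CD49d, the alpha chain of VLA-4 that lymphocytes and monocytes use to bind VCAM1. Its counts were 528, 612 and 690 in EW8 vehicle and 2342, 2309 and 2046 in EW8 doxycycline. They were 1238, 1637 and 1173 in TC71 vehicle and 1898, 1880 and 2163 in TC71 doxycycline. In CPM the groups averaged 12.6 ± 0.727, 44.8 ± 2.52, 24.3 ± 1.88 and 46.7 ± 2.23 (SD, n = 3), and only the treated groups overlapped each other.

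ITGA4 was called higher in EW8 (1.83 log2, SE 0.09, adjusted p = 4.23e-12). In TC71 it passed the p threshold at 0.94 log2 (SE 0.08, adjusted p = 2.55e-08) but stayed within the fold limit. The difference of the responses was -0.89 (SE 0.12, adjusted p = 2.46e-05) with an adjusted p of at most 0.000193 in all 19 alternative settings. TC71 started 0.95 log2 higher than EW8 with vehicle (SE 0.09, adjusted p = 1.91e-08) and differed from it by 0.06 with doxycycline (SE 0.08, adjusted p = 0.533). Without TC71 vehicle replicate 1 the TC71 response was 0.85 (adjusted p = 1.05e-08), and both the difference of the responses, -1.03 (adjusted p = 2.15e-07), and the vehicle difference between the lines, 1.08 (adjusted p = 7.31e-11), passed the fold limit.

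The beta partner of ITGA4 followed another order. ITGB1, the common beta subunit of matrix receptors, rose by 0.61 log2 in EW8 (SE 0.05, adjusted p = 4.02e-08), within the fold limit, and by 1.55 in TC71 (SE 0.06, adjusted p = 6.78e-14). Per kilobase of exon, ITGA4 was 4.42% ± 0.581 of ITGB1 in EW8 vehicle and 10.3% ± 0.586 in EW8 doxycycline. In TC71 it was 4.47% ± 0.382 with vehicle and 2.93% ± 0.0992 with doxycycline, so the ratio moved in opposite directions in the 2 lines. ITGB7 (ENSG00000139626.15, chr12:53191318-53207307, minus strand), the gut-homing beta subunit that pairs with ITGA4 and ITGAE, had at most 10 counts in any library. It had 8, 6 and 0 counts in EW8 vehicle, 0, 0 and 2 in EW8 doxycycline, 10, 0 and 0 in TC71 vehicle and 0, 6 and 0 in TC71 doxycycline, and ZNF740 overlaps 42.1% of its exon length on the opposite strand.

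Around ITGA4, the long noncoding RNA LINC01934 upstream of it had 2, 0 and 0 counts in EW8 vehicle and 31, 46 and 32 in EW8 doxycycline, and was called higher (adjusted p = 0.000329). In TC71 it had at most 2 counts with vehicle and 2, 4 and 8 with doxycycline (adjusted p = 0.042). CERKL, downstream on the opposite strand, was at 0.71 log2 in EW8 (adjusted p = 0.000496) and 0.03 in TC71 (adjusted p = 0.903).

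ITGAE was expressed in every library and its change with doxycycline did not pass the p threshold in either line. ITGAE (ENSG00000083457.11, chr17:3714628-3801243, minus strand) encodes CD103, which holds lymphocytes in epithelia. It averaged 31.7 ± 0.874 CPM in EW8 vehicle and 31.1 ± 2.45 in EW8 doxycycline, against 9.30 ± 0.0674 and 10.7 ± 0.392 CPM in TC71 (SD, n = 3). The changes were -0.03 log2 (SE 0.09, adjusted p = 0.814) and 0.20 (SE 0.09, adjusted p = 0.0809). The TC71 ranges did not overlap all the same, and the TC71 value was 0.12 (adjusted p = 0.365) without TC71 vehicle replicate 1. EW8 exceeded TC71 with no overlap, with TC71 minus EW8 at -1.77 (SE 0.09, adjusted p = 7.05e-12) under vehicle and -1.53 (SE 0.09, adjusted p = 5.23e-11) under doxycycline. Its partner ITGB7 was near the floor, and HASPIN, a gene on the opposite strand, overlaps 6.41% of its exon length.

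ITGA2B was the only member below its vehicle level in every treated library of both lines. ITGA2B (ENSG00000005961.18, chr17:44372180-44389505, minus strand) encodes CD41, a defining surface protein of megakaryocytes and platelets. Its counts were 283, 308 and 379 in EW8 vehicle and 280, 236 and 166 in EW8 doxycycline, or 6.63 ± 0.223 and 4.49 ± 0.629 CPM (SD, n = 3). They were 27, 70 and 20 in TC71 vehicle and 8, 16 and 12 in TC71 doxycycline. The change in EW8 was -0.56 log2 (SE 0.27, adjusted p = 0.102) and did not pass the test.

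In TC71, ITGA2B was called lower (-1.27 log2, SE 0.39, adjusted p = 0.0115), with 59 read pairs in vehicle and 18 with doxycycline, a ratio of 0.399 (95% counting interval 0.221 to 0.685). Without TC71 vehicle replicate 1 it was -1.52 (adjusted p = 0.00193). The call depended on other single libraries, at -0.67 (adjusted p = 0.138) once TC71 vehicle replicate 2 was left out and -1.07 (adjusted p = 0.0596) once TC71 doxycycline replicate 1 was. It was also lost in a fit of the 6 TC71 libraries alone (-1.25, adjusted p = 0.0922). The difference of the responses was -0.71 (SE 0.47, adjusted p = 0.346). Its platelet partner ITGB3 changed the other way and was called higher in EW8 (2.83, SE 0.56, adjusted p = 0.000403) and in TC71 (2.97, SE 0.55, adjusted p = 0.000195). Per kilobase, the ratio of ITGA2B to ITGB3 ran from 21.4 to 56 in EW8 vehicle, from 1.99 to 4.93 in EW8 doxycycline, from 3.08 to 3.96 in TC71 vehicle and from 0.151 to 0.192 in TC71 doxycycline. Among neighbors of ITGA2B within 50 kb, FAM171A2 was called lower in EW8 (-1.15, adjusted p = 3.58e-06) and was at -0.87 in TC71 (adjusted p = 0.000154), whereas GRN was at 0.95 (adjusted p = 1.3e-09) and 0.96 (adjusted p = 9.79e-10).

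**Figure D4:**
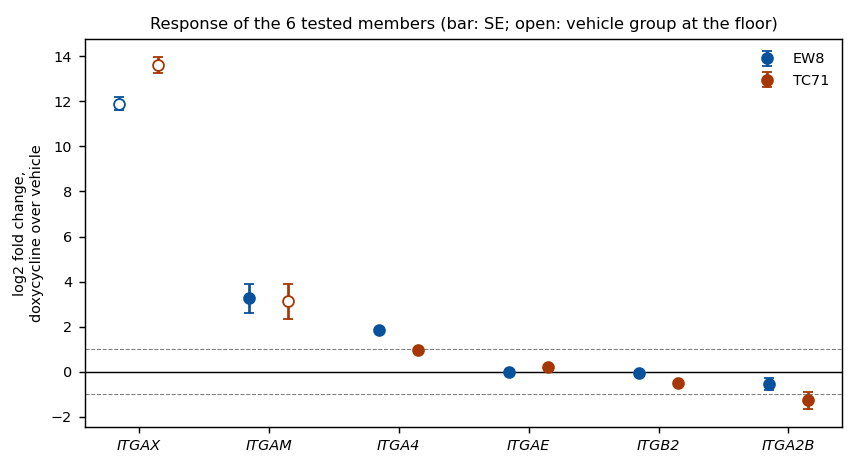
The y axis is the fitted log2 fold change of doxycycline over vehicle for the 6 tested genes (x axis) in EW8 (blue) and TC71 (brown), with SE bars and dashed lines at the fold limit. Open points mark a vehicle group at the floor, where the fitted value depends on the prior count. ITGAX, ITGAM and ITGA4 lie above 0 in both lines, ITGAE lies near 0, and ITGA2B lies below 0 at -0.56 and -1.27.

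Between the lines, TC71 against EW8 had 1 of the 9 genes called higher and 3 lower under vehicle, beside 11.6% and 18.9% of all tested genes. Under doxycycline the same numbers, 1 and 3, stood beside 12.6% and 18.4%. The higher gene was ITGB2 and the lower ones were ITGA2B, ITGAM and ITGAE in both comparisons, which use different libraries. The ITGA2B difference was -3.26 log2 under vehicle (SE 0.31, adjusted p = 3.26e-08) and -3.98 under doxycycline (SE 0.35, adjusted p = 1.49e-08). For ITGAM the values were -2.06 under vehicle (SE 0.83, adjusted p = 0.0399) and -2.20 under doxycycline (SE 0.60, adjusted p = 0.00393). By the p threshold alone, 5 of the 9 genes differed under either condition, beside 61.7% of all tested genes with vehicle and 62.5% with doxycycline. The vehicle call of ITGAM, which rests on 4 read pairs in TC71, was lost in 7 of 18 alternative settings, among them -1.26 (adjusted p = 0.259) without EW8 vehicle replicate 2 and -1.41 (adjusted p = 0.126) without TC71 vehicle replicate 1. For the difference of the 2 responses, 0 of the 9 genes were called in either direction, beside 7.05% (4.18% higher and 2.87% lower) of all tested genes, and ITGA4 and ITGB2 passed the p threshold alone, as 19.3% of all tested genes did.

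The order of levels per kilobase of exon changed with induction. In EW8 vehicle it was ITGB2 (18.4 CPM per kb), ITGAE (4.77), ITGA4 (1.59) and ITGA2B (1.20), all separate from the next by every library, and then ITGAM (0.0367), which overlapped ITGB7. In EW8 doxycycline ITGAX (8.75 CPM per kb) stood second after ITGB2 (17.5), ahead of ITGA4 (5.67) and ITGAE (4.67), each separate from the next. In TC71 vehicle ITGB2 (72.4 CPM per kb) was followed by ITGA4 (3.07), ITGAE (1.40) and ITGA2B (0.122), each separate from the next. In TC71 doxycycline the order was ITGB2 (51.0), ITGA4 (5.91), ITGAX (4.49) and ITGAE (1.61), with ITGAM and ITGA2B overlapping below them.

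RUNX1, a transcription factor of blood formation, had at most 2 counts per library with vehicle in either line and rose to 181, 131 and 124 counts in EW8 and 142, 120 and 94 in TC71 with doxycycline. Of the 12 leukocyte transcription factors listed, 8 were tested, 1 was called higher and 0 lower in EW8, and 2 were called higher and 2 lower in TC71. RUNX1 was the one called higher in EW8. In TC71, RUNX1 and TAL1 were called higher, and MYB (-1.74 log2) and CEBPA (-1.24 log2) lower. MYB and CEBPA were also lower in EW8, within the fold limit. They stood there at -0.99 and -0.52 log2 (adjusted p = 4.65e-05 and 0.0132, edgeR's quasi-likelihood test). For this list and those that follow, the shares of all tested genes called are those given above, 11.4% higher and 3.38% lower in EW8 and 12.3% higher and 3.67% lower in TC71, and the 1 of 8 factors called higher in EW8 is near that background. SPI1, the myeloid factor PU.1, had at most 16 counts in any library and was not tested, and GATA1, the megakaryocyte factor, had at most 8 counts and 0 in all treated libraries.

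Many of the remaining integrin genes rose too. Of the 17, 16 were tested, and 8 were called higher and 0 lower in EW8 and 11 higher and 0 lower in TC71, with medians of 1.53 and 2.27 log2. ITGA2, a collagen receptor subunit, rose by 5.77 (SE 0.10) and 5.53 (SE 0.09) log2, and ITGA6, a laminin receptor subunit, by 4.15 (SE 0.10) and 4.48 (SE 0.11). ITGA3, another laminin receptor subunit, rose by 4.11 in EW8 and 5.60 in TC71.

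Of 23 genes for integrin ligands, 15 were tested, and 7 were called higher and 1 lower in EW8 and 10 higher and 0 lower in TC71. FN1, the fibronectin bound by ITGA4 pairs, rose by 1.56 log2 in EW8 (SE 0.14) and 4.91 in TC71 (SE 0.17). C3, whose fragment iC3b is bound by the ITGAM and ITGAX receptors, rose by 2.70 (SE 0.13) and 2.71 (SE 0.32), from 10.2 to 66.5 CPM in EW8 and from 0.118 to 0.802 CPM in TC71. FCER2 (CD23), another ligand of these receptors, had 0 to 2 counts in EW8 vehicle and 78 to 108 in EW8 doxycycline. In TC71 it had 0 counts with vehicle and 4 to 6 with doxycycline. It was called higher there too (adjusted p = 0.00142, edgeR's quasi-likelihood test), although both TC71 groups were at the floor. MADCAM1, the ligand of the ITGA4 and ITGB7 pair, was the gene called lower in EW8 (-1.37, SE 0.51, adjusted p = 0.0363). Outside the naming rule and picked after their values were seen, ICAM1 was at 0.57 log2 in EW8 (adjusted p = 0.386) and 1.23 log2 in TC71 (adjusted p = 0.0359), and VCAM1 had at most 4 counts in any library.

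Of 24 genes for integrin activation, 20 were tested, and 6 were called higher and 1 lower in EW8 and 9 higher and 1 lower in TC71. FERMT3, the kindlin of blood cells that activates ITGB2, rose by 3.04 log2 in EW8 (SE 0.19, adjusted p = 2.32e-10) and 2.03 in TC71 (SE 0.17, adjusted p = 9.2e-09). APBB1IP (RIAM), which links RAP1 to talin, had 0, 0 and 2 counts in EW8 vehicle and 28, 28 and 22 with doxycycline, and 0 in TC71 vehicle and 148, 222 and 224 with doxycycline. TLN2, a talin, rose by 2.08 and 1.34, and PXN, the focal adhesion adaptor paxillin, by 2.20 and 2.42. VAV3 was the gene called lower in EW8 (-1.02, SE 0.31) and VAV1 in TC71 (-1.38, SE 0.13).

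Markers of leukocytes were examined for the same libraries. PTPRC (CD45), which defines leukocytes, had 2735 to 3830 counts in EW8 vehicle and 3391 to 4044 in EW8 doxycycline, but at most 6 counts in each of the 6 TC71 libraries. The 12 pan-leukocyte markers summed to 1080 to 1091 CPM in EW8 vehicle, 1433 to 1464 in EW8 doxycycline, 179.9 to 229.5 in TC71 vehicle and 334.1 to 352.8 in TC71 doxycycline, and LCP1 alone gave 61.8% to 74.9% of the group sums. Of these 12, 10 were tested, and CD53 and RAC2 were called higher in both lines, WAS lower in both and CD37 lower in TC71. The CD53 call in TC71 rests on 0 to 14 counts per treated library, and its treated and vehicle libraries overlapped.

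The 15 myeloid markers summed to 2.23 to 2.68 CPM in EW8 vehicle, 14.9 to 18.6 in EW8 doxycycline, 0.815 to 1.34 in TC71 vehicle and 3.15 to 3.55 in TC71 doxycycline. Of these, 6 were tested, with 0 called lower in either line, and CSF1R, the receptor of a macrophage growth factor, was among those called higher in both lines, while MARCO was called higher in EW8. MARCO, a macrophage scavenger receptor, gave 67.7% of the EW8 doxycycline sum, while TYROBP, an adaptor of myeloid cells, had 0 counts in every library. The 18 lymphoid markers summed to 41.4 to 45.2 CPM in EW8 vehicle and 22.4 to 24.8 in EW8 doxycycline, and to 13.2 to 15.2 and 22.3 to 24.4 CPM in TC71, and they went different ways. Of these, 10 were tested, with 2 called higher (PAX5 and KLRD1) and 2 lower (CD79B and CD247) in EW8, and 2 higher (PAX5 and CD247) and 0 lower in TC71. CD79A, a chain of the B-cell receptor, gave 48.4% of the EW8 vehicle sum, and CD247, a chain of the T-cell receptor complex, 62.1% of the TC71 doxycycline sum. CD3E, a defining gene of T cells, had 2 counts in 1 library and 0 in the others. The 12 platelet markers summed to at most 1.48 CPM in any library, and PF4 had 0 counts in all 12. The myeloid sum thus moved with ITGAX and ITGAM, and its part in their rise was not tested. In the TC71 libraries, where both also rose, PTPRC was at 6 counts or fewer.

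**Figure D5:**
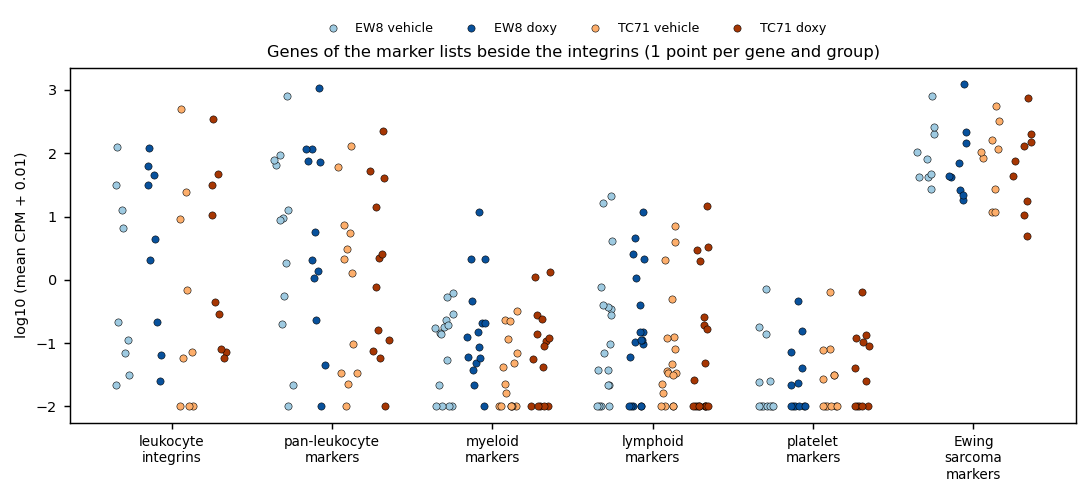
Each point is 1 gene in 1 group, with the mean level as log10 of CPM plus 0.01 (n = 3 libraries) on the y axis and 6 gene lists on the x axis. All 9 Ewing sarcoma markers lie above the floor in every group, whereas the 12 platelet markers sum to at most 1.48 CPM, and pan-leukocyte markers are higher in EW8 (1080 to 1464 CPM in sum) than in TC71 (179.9 to 352.8 CPM).

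The genes whose log2 CPM over the 12 libraries was most like that of each tested member were taken as a description, since the points share 4 groups. For ITGAX they were VEPH1 (Pearson r = 0.999), IL1RN (0.998), the interleukin-1 receptor antagonist, and SPSB1 (0.997). For ITGA4 they were EMP1 (0.995), PARP4 (0.994) and FOSL2 (0.994), the last a FOS-family AP-1 subunit. For ITGB2 they were SERPINF1 (0.996), RPL15 (0.995) and NDUFV3 (0.994). For ITGAE they were PAFAH1B1 (0.997), EIF4G3 (0.997) and RABEP1 (0.996), of which PAFAH1B1 and RABEP1 lie on chromosome 17 with it. For ITGA2B they were SEC16A (0.991), CYP2S1 (0.989) and KCND1 (0.988). For ITGAM they were SND1 (0.973), PFN1 (0.969) and PLEKHM2 (0.968), whose lowest levels over the libraries, 328.3, 380.2 and 87.1 CPM, lay far above that of ITGAM.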

How the data were processed

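The study sequenced polyadenylated RNA of 12 libraries as read pairs with a strand-specific kit. The authors checked reads with FastQC, aligned them to hg38 with STAR, and featureCounts 2.0.1 counted them over the exons of GENCODE 29 genes. The deposited values were raw counts per gene. Per the file headers, each mate counted on its own, strand was ignored, and multi-mapped reads and reads on more than 1 gene were dropped, so overlapping genes and paralogs are uncertain.

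Counts were tested with edgeR 4.0.16 (R 4.3.3): filterByExpr (21013 genes kept, 99.95% of counts), TMM scaling, 1 quasi-likelihood fit of 4 groups, and Benjamini-Hochberg adjustment. Genes were called at adjusted p < 0.05 and log2 fold change beyond 1. CPM is TMM-scaled, and exon length is the deposited one. The SE given is the size of the log2 fold change divided by the square root of the F statistic. The fold change includes a prior count and F does not, so the SE is approximate and least reliable near the floor. Symbols were matched by gene ID for 58207 genes. Read pairs are the counts of each library halved and rounded up, and are approximate. Per library, 67.3% to 69.8% of gene counts from 20 to 199 were even, so some mates were counted without their partner. Read-pair ratios have exact conditional intervals (scipy 1.17.1), which cover counting error only. The fit was tested on simulated data. Separate cultures are not stated in the labels, so p-values measure the spread between these libraries, which may be technical.

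The members and gene lists were chosen with earlier results of these data known. Named genes were all members, JUN and FOS, ITGB1 and ITGB3, up to 6 called genes per list with the largest change plus PTPRC, SPI1, CD3E, PF4 and CD99, the 3 genes most alike each tested member, and neighbors within 50 kb of a called member. Genes named outside this rule, among them ICAM1, VCAM1, LCP1, CD79A, TYROBP, GATA1, ITGB2-AS1, PRSS8 and TGFB1I1, were picked after their values were seen. Alternatives were other scalings, filters, DESeq2 1.42.0, a replicate block, read pairs, fewer libraries and leaving out each library. Knockdown experiments of the study were not analysed here.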

Additional observations from a re-analysis of the deposited data

Results flagged for a closer look

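The response of ITGA4 to doxycycline differed between the lines by a test of the difference itself, at -0.89 log2 in TC71 minus EW8 (SE 0.12, adjusted p = 2.46e-05, edgeR's quasi-likelihood test). It was higher with doxycycline in 3 of 3 libraries of each line, and the lines differed with vehicle but not detectably with doxycycline.

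The response of ITGB2 also differed, at -0.44 log2 (SE 0.15, adjusted p = 0.0421). ITGB2 was lower in 3 of 3 treated TC71 libraries, whereas the EW8 groups overlapped. Over 19 alternative settings the difference lay between -0.72 and -0.37, with an adjusted p from 8.23e-08 to 0.113.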

How the results depend on the processing

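Of 576 values of single genes under alternative settings, 552 stayed on the same side of the threshold, 10 lost a call and 14 gained one. No called value changed sign, whereas 15 uncalled values in 5 results did, with adjusted p of at least 0.621. Requiring at least 10 counts in every library removes genes with an empty group, and the count of members called higher then fell to 1 in EW8 and 0 in TC71, with 0 called lower in TC71 and 1 called lower in TC71 against EW8 under vehicle and under doxycycline. Over all genes, that filter left 14647 genes, with 1255 called higher and 345 lower in EW8 (2401 and 711 before) and 1362 higher in TC71 (2583 before). Fits of only the 6 libraries compared gave 1 called higher and 0 lower in TC71. With no fold limit, 2 were lower in TC71, 2 lower for the difference of the responses, and 2 higher in TC71 against EW8 under vehicle. Leaving out each library in turn gave 0 to 1 lower in TC71, 0 to 1 lower for the difference of the responses and 1 to 2 higher under vehicle. ITGAE averaged 32.7 CPM in EW8 vehicle, 9.51 in TC71 vehicle and 10.3 in TC71 doxycycline by library size alone, and 9.38 in TC71 vehicle by median-ratio factors. The cause of these shifts was not tested beyond what each setting removes.

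Replicate numbers gave no clear pairing, as same-numbered libraries correlated only between -0.0282 and 0.0183 in their deviations. Of 36 best matches among 3 libraries each, 19 fell on the same number. That is above the 1 in 3 of random matches, so a weak pairing was not excluded. With the replicate block, 3 members were called higher in EW8, and 2 higher and 1 lower in TC71, and over all genes 2350 were called higher in EW8 and 2508 in TC71. Genes at or near the floor, ITGAL, ITGAD and ITGB7, are limited by depth. ITGB7 is also limited by ZNF740, which overlaps 42.1% of its exon length, where reads on both genes were dropped.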
